A study of Mus musculus with 8 samples.

Results

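The genes described here are 9 components and receptors of complement, listed by symbol and matched exactly to the deposited table of 36333 genes: the classical pathway proteases and substrates C1ra, C1s1, C4b and C2, the central component C3, the alternative pathway protease Cfb, the anaphylatoxin receptors C3ar1 and C5ar1, and the inhibitor Serping1. All 9 were found, and all 9 passed the filter on low counts, which left 17286 genes for testing. RNA-seq of whole skin was available from 4 Nampt-cKO libraries and 4 control libraries of C57BL/6J males labelled 8-week-old. The study's methods give that age for the Nampt-cKO mice at tamoxifen injection, and skin was taken later. Every mouse was homozygous for a floxed Nampt allele, the gene of the enzyme that recycles nicotinamide to NAD+. The Nampt-cKO mice carried in addition KRT5-CreERT2, a tamoxifen-activated recombinase driven by a promoter of basal keratinocytes, and received tamoxifen by intraperitoneal injection at 100 µg/g from a 20 mg/mL solution on 5 days. The control mice are labelled Nampt flox/flox, and the labels state neither a recombinase nor tamoxifen for them. The study's methods describe tamoxifen for controls in a separate ultraviolet experiment, and its time line of sampling names both groups, so these controls may have received it. An effect of the recombinase itself cannot be told apart from that of the deletion. Deletion was thus directed to keratinocytes, whereas RNA was taken from all cells of the skin. The labels do not say that the 4 libraries of a group came from separate mice, and p-values measure the spread between these libraries only.

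Complement is a cascade of plasma and tissue proteins that tags surfaces for removal and attracts leukocytes. The classical pathway starts when C1q, bound to its target, activates the proteases C1r and C1s. C1s then cuts C4 and C2 to form an enzyme that cleaves C3. In the alternative pathway, factor B joins a C3 fragment to form a second such enzyme. The released fragments of C3 and C5 act on C3aR and C5aR on myeloid cells. Most circulating complement is made in the liver, but keratinocytes, fibroblasts, endothelium and macrophages also transcribe several components, and inflammatory cytokines are known inducers of C3 and Cfb.

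The libraries held 39390895 to 52672388 exon reads in the Nampt-cKO group, against 41206078 to 53762935 in controls, and each gene described here had between 50 and 22256 exon reads in a library. Nampt was at 32.3, 37.5, 76.1 and 49.6 CPM (exon reads scaled to a common library size with TMM factors) in Nampt-cKO libraries 1 to 4, against 77.7, 72.9, 71.0 and 60.4 CPM in control libraries 1 to 4. The library labelled Nampt-cKO replicate 3 therefore lay within the control range for the targeted gene, and values for the complement genes are given with and without it. Nampt itself had a log2 fold change of -0.53 (edgeR adjusted p = 0.0974) and did not pass the test at 0.05. The keratinocyte list summed to 19665 to 32259 CPM in Nampt-cKO skin and to 30664 to 34205 CPM in control skin, with all 8 of its genes tested. Of all genes tested, 23.8% were higher and 22.0% lower in Nampt-cKO skin (edgeR's quasi-likelihood test, Benjamini-Hochberg adjusted p under 0.05 over all genes tested), a background against which any count among the complement genes has to be read. In bulk skin, fewer cells of a type and less RNA per cell cannot be told apart.

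The upstream sequence of C3 is shown because C3 spanned the widest range among Nampt-cKO libraries, and those of C1ra and C1s1 because they encode partner proteases whose levels were compared. The RefSeq table (build GRCm38.p6) held a window of 250 bases before to 50 bases after the start for 5 of the 9 genes: C3, C1ra, C1s1 (with 2 annotated starts, of which the one with a motif match is shown), C3ar1 and C5ar1. Only the 250 bases before the start are printed, in the direction of transcription, with motif matches in capitals. C3 lies on the minus strand (chr17:57228137-57228386), C1ra on the plus strand (chr6:124512371-124512620) and C1s1 on the minus strand (chr6:124542360-124542609).
C3: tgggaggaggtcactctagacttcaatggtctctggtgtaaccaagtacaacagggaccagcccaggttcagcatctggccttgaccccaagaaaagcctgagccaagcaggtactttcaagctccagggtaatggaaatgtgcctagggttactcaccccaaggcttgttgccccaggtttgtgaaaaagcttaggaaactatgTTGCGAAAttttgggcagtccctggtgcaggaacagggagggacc
C1ra: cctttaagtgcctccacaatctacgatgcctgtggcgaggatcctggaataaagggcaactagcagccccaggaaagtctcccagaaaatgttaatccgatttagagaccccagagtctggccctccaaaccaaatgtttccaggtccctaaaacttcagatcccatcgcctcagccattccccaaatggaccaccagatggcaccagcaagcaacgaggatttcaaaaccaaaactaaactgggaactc
C1s1: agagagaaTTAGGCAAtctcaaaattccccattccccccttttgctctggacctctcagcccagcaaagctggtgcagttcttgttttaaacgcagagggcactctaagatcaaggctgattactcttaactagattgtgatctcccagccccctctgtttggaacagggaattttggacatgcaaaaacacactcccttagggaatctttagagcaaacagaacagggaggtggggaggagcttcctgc

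A C/EBP motif, searched as TTGCNNAA on both strands, began at base -45 of C3 and base -242 of C1s1, counted from the start. The matched letters were TTGCGAAA in C3 and, on the other strand, TTAGGCAA in C1s1. In C1ra the motif lay 17 bases after the start, together with a STAT motif (TTCNNNGAA) 33 bases after it, so that neither stands in the printed stretch. The near-identical neighbour C1rb held the same 2 motifs before its annotated start, at bases -135 and -119. In all, 3 of the 5 genes with a window held the C/EBP motif and 1 held the STAT motif. Of 32851 single windows of the same length, 10.8% and 8.30% held them. The gene count is not quite like the window share, since C1s1 had 2 windows. None of the 5 held an NF-kB motif, which 8.46% of windows held. A match is a description of letters and not a binding site.

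Of the 9 genes, 3 passed the test as higher in Nampt-cKO skin (Cfb, C3 and C4b) and 0 as lower. That is 3 of 9 beside a background of 23.8% of all genes tested, and a share this near the background is not a result about these genes as a group. At an unadjusted edgeR p under 0.05, 6 were higher and 0 lower. That share was not counted over all genes, so it is not a result about these genes as a group. DESeq2 likewise called 6 higher and 0 lower at its adjusted threshold, beside 4403 higher and 4218 lower among all genes. All 9 fold changes were above 0, against 8537 of 17286 genes tested, although that of C2 was near 0 and changed sign in 8 of 20 alternatives. Their median was 0.83 on the log2 scale, against -0.01 over all genes tested. In 2 of the 9, Cfb and C4b, every Nampt-cKO library lay above every control library, a pattern shown by 23.0% of all genes tested. Without Nampt-cKO replicate 3, 2 of the 9 passed as higher, beside 3860 of all genes.

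**Figure D1:**
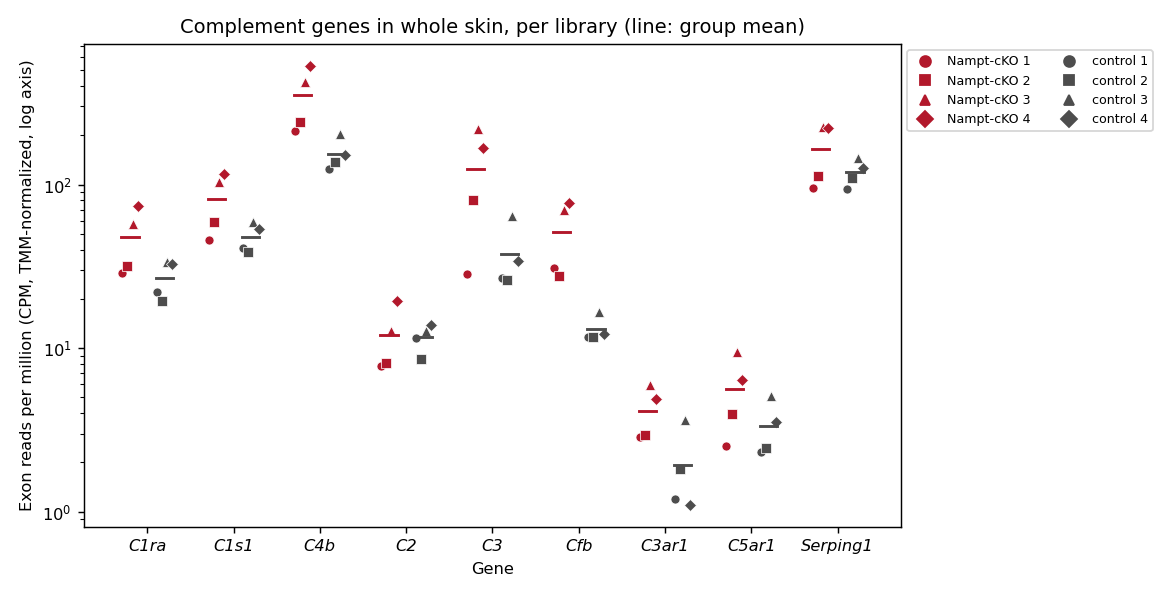
Exon reads in CPM (log axis) of the 9 complement genes in each library, with Nampt-cKO libraries in red to the left of control libraries in grey, symbols for replicate numbers and a line for each group mean. Only Cfb and C4b have all 4 Nampt-cKO libraries above all 4 control libraries, and replicates 3 and 4 are the upper Nampt-cKO pair for all 9 genes.

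Cfb, the protease precursor of the alternative pathway C3 convertase (chromosome 17, 34856374 to 34862514, GRCm38), had the largest fold change of the 9. It stood at 30.9, 27.6, 70.2 and 76.8 CPM in Nampt-cKO libraries 1 to 4, against 11.7, 11.7, 16.5 and 12.2 CPM in control libraries 1 to 4. The lowest Nampt-cKO library exceeded the highest control library, and the Nampt-cKO libraries fell into a lower pair (1 and 2) and an upper pair (3 and 4). The log2 fold change was 1.98 (SE 0.34, n = 4 each, edgeR adjusted p = 0.00130), a 3.94-fold rise. It passed the test under all 20 alternatives, with a log2 fold change between 1.55 and 2.18, and stood at 1.79 without Nampt-cKO replicate 3 (adjusted p = 0.00320).

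C3, the component on which all pathways converge (chromosome 17, 57203967 to 57228136), was the most variable of the 9 in Nampt-cKO skin. It stood at 28.2, 80.3, 219 and 167 CPM in Nampt-cKO libraries 1 to 4, against 26.9, 26.2, 64.5 and 33.9 CPM in control libraries 1 to 4. Nampt-cKO replicate 1 sat inside the control range, replicate 3 was 7.78 times as high as replicate 1, and the groups overlapped. C3 rose by the test, with a log2 fold change of 1.71 (SE 0.56, n = 4 each, edgeR adjusted p = 0.0316). This call rests on single libraries. It was lost without Nampt-cKO replicate 3 (log2 fold change 1.27, edgeR adjusted p = 0.0836) or 4 (1.53, 0.0758), and without control replicate 1 (1.57, 0.0852), 2 (1.56, 0.0842) or 4 (1.65, 0.0758). It was also lost in limma on log2(RPKM + 0.1), at an adjusted p of 0.0844, and on log2(RPKM + 1), at 0.0888.

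Of the 4 classical pathway genes among the 9, 1 passed the test. C4b, whose product is the C4 substrate of C1s (chromosome 17, 34728036 to 34743901), was at 214, 240.5, 425 and 531 CPM in Nampt-cKO libraries 1 to 4, against 124, 137, 205 and 151 CPM in control libraries 1 to 4. The groups were separate, although Nampt-cKO replicate 1 exceeded control replicate 3 by little. C4b rose, with a log2 fold change of 1.19 (SE 0.29, n = 4 each, edgeR adjusted p = 0.00845), and passed under all 20 alternatives. Without Nampt-cKO replicate 3 its log2 fold change was 1.09 (adjusted p = 0.0208).

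C1ra and C1s1 encode the partner proteases of the C1 complex and lie on chromosome 6 (124512621 to 124523440 and 124530344 to 124542392). C1ra was at 28.7, 31.7, 57.5 and 73.5 CPM in Nampt-cKO libraries 1 to 4, against 22.1, 19.3, 33.6 and 32.6 CPM in control libraries 1 to 4. Nampt-cKO replicates 1 and 2 lay within the control range, while replicates 3 and 4 lay above it. Its log2 fold change was 0.83 (SE 0.32, n = 4 each, edgeR adjusted p = 0.0555), short of the threshold. C1s1 was at 45.5, 59.0, 104 and 116 CPM in Nampt-cKO libraries 1 to 4, against 40.9, 38.8, 59.1 and 53.6 CPM in control libraries 1 to 4. The same pair of libraries stood above all controls, and the log2 fold change was 0.76 (SE 0.29, n = 4 each, edgeR adjusted p = 0.0559). Both genes crossed the threshold in 5 of 20 alternatives, among them DESeq2 (adjusted p = 0.0158 for C1ra and 0.0171 for C1s1), limma-voom with sample quality weights (0.0124 and 0.00958) and the edgeR fits without Nampt-cKO replicate 1 (0.0180 and 0.00864) or 2 (0.0390 and 0.0465). Without Nampt-cKO replicate 3 the log2 fold changes were 0.73 for C1ra (adjusted p = 0.119) and 0.61 for C1s1 (0.134).

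C2, the second subunit of the classical C3 convertase, lies next to Cfb on chromosome 17 (34862602 to 34882100), on the same strand and with 85 bases between their annotated GENCODE M21 ends. It was at 7.76, 8.06, 12.7 and 19.3 CPM in Nampt-cKO libraries 1 to 4, against 11.6, 8.54, 12.7 and 13.9 CPM in control libraries 1 to 4. Nampt-cKO replicates 1 and 2 were below all controls and replicate 4 was above them. The log2 fold change was 0.03 (SE 0.30, n = 4 each, edgeR adjusted p = 0.939), and its sign changed under 8 of the 20 alternatives, among them without Nampt-cKO replicate 3, so no direction is given for it.

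The receptors were the least expressed of the 9. C3ar1, the receptor of C3a (chromosome 6, 122847140 to 122856157), was at 2.85, 2.93, 5.93 and 4.87 CPM in Nampt-cKO libraries 1 to 4, against 1.20, 1.83, 3.63 and 1.10 CPM in control libraries 1 to 4. Control replicate 3 alone reached into the Nampt-cKO range, and the log2 fold change was 1.09 (SE 0.43, n = 4 each, edgeR adjusted p = 0.0649). It passed without control replicate 3 (log2 fold change 1.58, edgeR adjusted p = 0.0120), without Nampt-cKO replicate 1 (1.23, 0.0480), in DESeq2 (1.09, 0.0279) and in limma-voom with sample quality weights (1.32, 0.0186), 5 of 20 alternatives in all, and was 0.86 without Nampt-cKO replicate 3 (0.155). C5ar1, the receptor of C5a (chromosome 7, 16246743 to 16259540), was at 2.52, 3.94, 9.48 and 6.41 CPM in Nampt-cKO libraries 1 to 4, against 2.33, 2.46, 5.12 and 3.52 CPM in control libraries 1 to 4. Nampt-cKO replicate 1 was near the lowest control and replicates 3 and 4 were above all controls. Its log2 fold change was 0.73 (SE 0.42, n = 4 each, edgeR adjusted p = 0.186), it passed under none of the 20 alternatives, and without Nampt-cKO replicate 3 it was 0.34 (0.510).

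Serping1 encodes the C1 inhibitor, which blocks C1r and C1s (chromosome 2, 84765360 to 84775444). It was at 95.4, 113, 226 and 223 CPM in Nampt-cKO libraries 1 to 4, against 93.5, 109.8, 145 and 126 CPM in control libraries 1 to 4. Again replicates 3 and 4 of the Nampt-cKO group stood above all controls and replicates 1 and 2 among them. The log2 fold change was 0.47 (SE 0.28, n = 4 each, edgeR adjusted p = 0.208). It passed in 1 of 20 alternatives, without Nampt-cKO replicate 1 (0.65, edgeR adjusted p = 0.0481), and was 0.27 without Nampt-cKO replicate 3 (0.471).

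**Figure D2:**
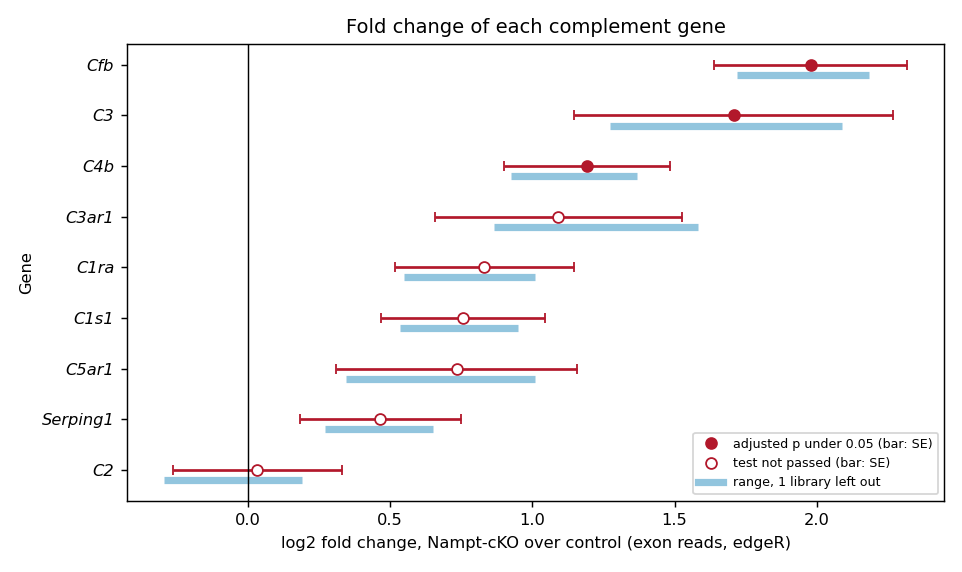
Log2 fold change of each gene, Nampt-cKO over control, from exon reads (points, with SE bars; filled where the edgeR adjusted p was under 0.05) and the range of that value when 1 library was left out (pale bars). The 3 filled points are Cfb at 1.98, C3 at 1.71 and C4b at 1.19, and the pale bar of C2 crosses 0.

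The 9 genes shared a pattern among the libraries of a group. How many of all genes tested share it was not counted, so it cannot be called particular to these genes. Nampt-cKO replicates 3 and 4 were the upper pair for 9 of 9 genes, and Nampt-cKO replicate 1 was the lowest for 8 of 9, Cfb being lowest in replicate 2. Among controls, replicate 3 was the highest for 8 of 9, and C2 was highest in replicate 4. The spread from lowest to highest library ran from 2.08-fold (C3ar1) to 7.78-fold (C3) in Nampt-cKO skin, against 1.42-fold (Cfb) to 3.30-fold (C3ar1) in control skin. Summed over the 9 genes, the levels were 456, 567, 1130 and 1217 CPM in Nampt-cKO libraries 1 to 4, against 334, 356, 545 and 428 CPM in control libraries 1 to 4.

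**Figure D3:**
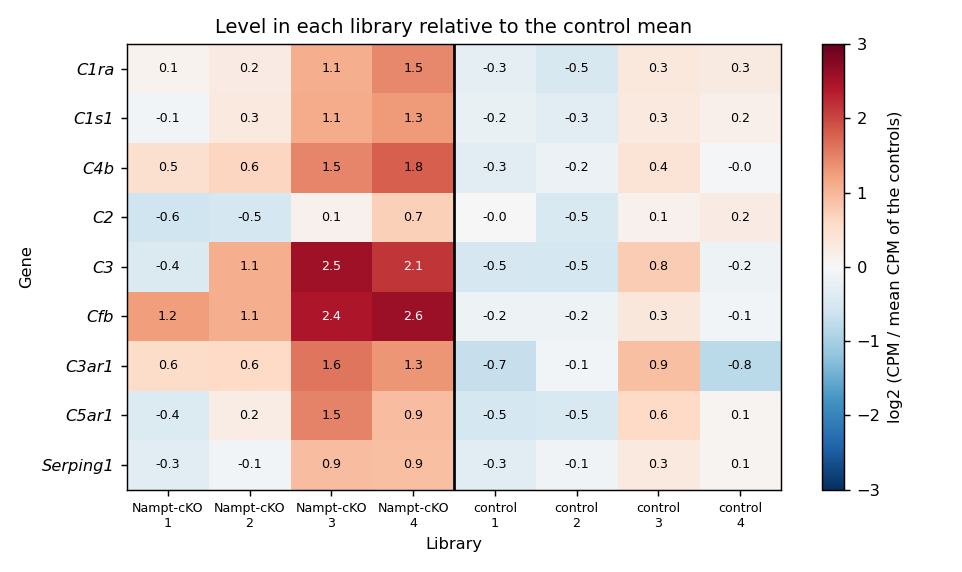
Level of each gene in each library as log2 of its CPM over the mean CPM of the 4 controls, Nampt-cKO libraries at the left and control libraries at the right of the line, with the value written in each cell. Nampt-cKO replicates 3 and 4 have the highest values of their group for all 9 genes, and Nampt-cKO replicate 1 is below the control mean for C3, C1s1, C2, C5ar1 and Serping1.

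Cell type markers were set beside this pattern. The fibroblast list summed to 2285, 2283, 3702 and 4246 CPM in Nampt-cKO libraries 1 to 4, against 5179, 7146, 7341 and 8037 CPM in control libraries 1 to 4, so the upper pair was the same as for the complement genes while the group as a whole was lower, with 3 of its 8 genes lower (Col1a1, Col1a2 and Col3a1) and 1 higher (Pdgfra). Replicates 3 and 4 were also the upper Nampt-cKO pair for the endothelial list, at 191, 199, 480 and 301 CPM in Nampt-cKO libraries against 346, 306, 338 and 305 CPM in control libraries, and for the adipocyte list, which includes Cfd, at 75.4, 175, 447 and 218 CPM against 204, 208, 231 and 77.0 CPM. For the keratinocyte list they were the lower pair, at 25766, 32259, 23781 and 19665 CPM in Nampt-cKO libraries 1 to 4. Control libraries 1 to 4 had 32949, 34205, 32878 and 30664 CPM of it. Of its 8 genes, 3 were lower (Krt10, Ivl and Lor) and 1 higher (Krt14). The list of monocytes and macrophages summed to 327, 377, 770 and 469 CPM in Nampt-cKO libraries and to 280, 335, 482 and 319 CPM in control libraries. There too Nampt-cKO replicates 3 and 4 were the upper pair and control replicate 3 was the highest control, and of the 12 genes 4 were higher (Cd14, Ly6c2, Mrc1 and Cd163) and 4 lower (Csf1r, Ccr2, Mertk and Marco). The neutrophil list summed to 35.7, 528, 762 and 171 CPM in Nampt-cKO libraries, against 3.24 to 3.99 CPM in control libraries, with 10 of 10 tested genes higher, and Ly6g, Fpr1 and Ngp at 0 reads in all controls. The list of dendritic and Langerhans cells summed to 188 to 463 CPM in Nampt-cKO libraries, against 1076 to 1647 CPM in control libraries, with 6 of 9 genes lower, and the T cell list to 4.06 to 8.93 CPM, against 30.8 to 40.6 CPM, with 4 of 5 tested genes lower. Skeletal muscle genes varied from 82.9 to 3166 CPM among Nampt-cKO libraries and from 154 to 2044 CPM among control libraries. The list of liver and plasma protein genes, which would mark RNA of the main source of circulating complement, reached 24.4 to 48.2 CPM in Nampt-cKO libraries, against 2.24 to 7.00 CPM in control libraries, with 2 of its 8 genes expressed enough to test and Ttr the only one higher. The part of these cell types in the complement values was not tested.

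The genes most like C3 and C5ar1 within groups were found by Pearson correlation of log2 CPM over the 8 libraries after subtracting each group's mean, as a description in which all points share their libraries. For C3 they were Mmp14, a membrane collagenase (r = 0.991), Prg4, encoding lubricin (0.989), Celf2, an RNA-binding protein (0.987), Gpx3, an extracellular glutathione peroxidase (0.985), and Add3, a cytoskeletal adducin (0.984). For C5ar1 they were Ntn1 (0.988), encoding the guidance protein netrin-1, Rarres2 (0.987), encoding chemerin, Fbn1 (0.980), encoding fibrillin, Tgfbr2 (0.979), a TGF-beta receptor, and Tmem176b (0.979). Among the 9 genes themselves, the correlation with C3 ran from 0.727 (C2) to 0.965 (C5ar1). Genes alike within groups differed in direction between groups. Add3 was lower in Nampt-cKO skin by a log2 fold change of -0.78 (edgeR adjusted p = 0.000681) and Ntn1 by -1.05 (0.0160), whereas Mmp14 was higher by 1.13 (0.00378) and Prg4 by 4.74 (0.000363).

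Levels of different genes were compared as the deposited RPKM, which divide by exon length. In Nampt-cKO skin the order of mean levels was Serping1 (72.2 RPKM), C4b (49.8), C1s1 (21.1), C3 (19.1), Cfb (15.0), C1ra (14.0), C2 (3.65), C5ar1 (1.76) and C3ar1 (0.783). In control skin it was Serping1 (55.9 RPKM), C4b (23.4), C1s1 (13.4), C1ra (8.42), C3 (6.30), Cfb (4.08), C2 (3.82), C5ar1 (1.13) and C3ar1 (0.392). C3 and Cfb thus stood above C1ra in Nampt-cKO skin and below it in control skin, but in Nampt-cKO skin only C4b and C1ra stood clear of the next gene, the ranges of all other neighbours overlapping. In control skin C1ra overlapped C3, C3 overlapped Cfb and Cfb overlapped C2, and the other neighbours were separate. Cfb exceeded C2 in 4 of 4 Nampt-cKO libraries and in 2 of 4 control libraries.

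Within-library ratios tested whether partners changed to different extents, for 4 pairs and with exact two-sided permutation tests over libraries. The log2 ratio of Cfb to its neighbour C2 was 1.93, 1.71, 2.40 and 1.93 in Nampt-cKO libraries 1 to 4, against -0.05, 0.39, 0.31 and -0.25 in control libraries 1 to 4. No library overlapped, and the difference of 1.89 had an exact p of 0.0286, the smallest that 4 against 4 libraries can give (0.114 after Benjamini-Hochberg adjustment over 4 pairs, where a single pair at that smallest value cannot pass). The difference stayed between 1.75 and 1.99 when 1 library was left out. C1ra to C1s1 differed by 0.09 (exact p = 0.343, adjusted 0.457), with log2 ratios of -0.60 ± 0.12 in Nampt-cKO and -0.68 ± 0.12 in control libraries (SD, n = 4 each). C3 to Cfb differed by -0.41 (exact p = 0.514, adjusted 0.514), with 0.13 ± 0.81 and 0.54 ± 0.37, and C5ar1 to C3ar1 by -0.56 (exact p = 0.171, adjusted 0.343), with 1.07 ± 0.36 and 1.63 ± 0.58. None of the 4 differences passed after adjustment, and for these last 3 the spreads leave room for differences in either direction.

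Intron reads, a readout of mostly unspliced RNA, gave a second measurement of the same genes. Enough were present to test 7 of the 9, not C3ar1 (8, 0, 4 and 0 reads in Nampt-cKO libraries, 0 in each control) or C5ar1 (0, 5, 26 and 19 reads in Nampt-cKO libraries, against 0, 1, 4 and 2 in controls). Of the 7, 3 were higher (C3, Cfb and C1s1), beside a background of 13.8% of the 15895 genes tested on intron reads. C3 had 26, 15, 116 and 43 intron reads in Nampt-cKO libraries 1 to 4, against 6, 2, 6 and 9 in control libraries 1 to 4, and the groups did not overlap. Its intron log2 fold change was 3.02 (SE 0.71, edgeR adjusted p = 0.00675). The intron test was not repeated without Nampt-cKO replicate 3, which had 116 intron reads of C3. In that readout Nampt-cKO replicate 1, which lay with the controls for exon reads of C3, was above all controls. Cfb changed by 0.92 in intron reads (SE 0.24, edgeR adjusted p = 0.0113) and C1s1 by 0.88 (SE 0.26, adjusted p = 0.0224). C4b had 0.65 (adjusted p = 0.0686), Serping1 0.60 (0.119), C1ra 0.08 (0.924) and C2 -0.31 (0.406). The difference between the exon and the intron change was not tested. Intron reads made up 12.7% to 16.5% of all gene reads in Nampt-cKO libraries, against 10.8% to 11.8% in control libraries.

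**Figure D4:**
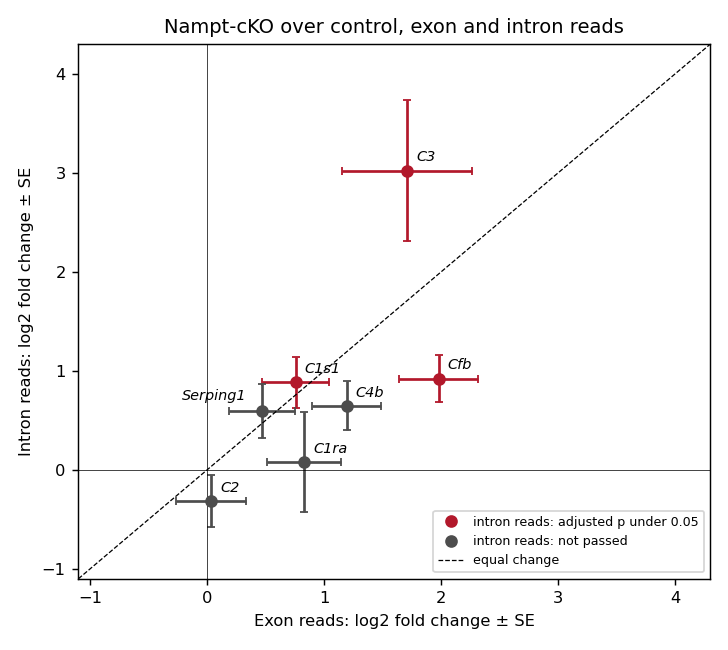
Log2 fold change, Nampt-cKO over control, in exon reads (horizontal) and intron reads (vertical) for the 7 genes testable in both, with SE bars, red where the intron test passed and a dashed line of equal change. C3 lies above the line at 3.02 in intron reads, and Cfb lies below it at 0.92.

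Near-identical or overlapping genes limit what some of these counts measure. Of the 50-base stretches in C1ra transcripts (GENCODE M21), 48.0% also occur in C1rb, 21.8% of those of C1s1 occur in C1s2, and 34.6% of those of C4b occur in C4a, so reads of these pairs could have been split or merged. In the deposited columns 88.2% to 92.4% of C1ra exon reads were unique, as were at least 99.4% of those of C1s1 and 97.7% of those of C4b. C1rb had 0, 0, 2 and 6 exon reads in Nampt-cKO libraries and 0 in all 4 controls. C1s2 averaged 0.647 CPM in Nampt-cKO and 0.626 CPM in control libraries, with a log2 fold change of 0.05 (edgeR adjusted p = 0.938), and C4a averaged 2.79 and 1.69 CPM, with 0.72 (0.102). Exons of another annotated gene, Gm20547, cover 79.5% of the exon bases of Cfb and 42.8% of those of C2 on the same strand, and reads of it cannot be told apart from theirs there. C1s1 shares 18.4% of its exon bases with the antisense gene Gm16567, and C2 shares 4.16% with Zbtb12 on the other strand, and whether counting used strand is not given in the sources used here.

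The other complement genes gave the setting. Of 45 listed, 29 were tested, and 8 were higher and 5 lower, that is a share close to the background of 23.8% and 22.0%. Their median log2 fold change was 0.11. Of the classical pathway, the 3 chains of C1q were higher. C1qa stood at 44.2, 48.8, 106 and 70.3 CPM in Nampt-cKO libraries 1 to 4, against 24.5, 29.3, 51.7 and 28.1 CPM in control libraries 1 to 4, with a log2 fold change of 1.01 (SE 0.32, edgeR adjusted p = 0.0257). C1qb had 0.998 (0.0438) and C1qc 1.05 (0.0259). C1q is made mainly by macrophages, and replicate 3 of each group was the highest of its group for all 3 genes. It was so too for the summed macrophage list, of which 4 genes were higher and 4 lower. The same held for the adipocyte, skeletal muscle, mast cell and red blood cell lists. The part of macrophages in the C1q values was not tested. Their calls were lost without Nampt-cKO replicate 3 (0.70 for C1qa, edgeR adjusted p = 0.0609, 0.59 for C1qb, 0.112, and 0.77 for C1qc, 0.0655), and also without Nampt-cKO replicate 4 or control replicate 1, 2 or 4. Over all 20 alternatives C1qa and C1qc passed in 15 each and C1qb in 9.

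Of the lectin pathway, Masp1, a protease that acts with mannose-binding lectins and ficolins, was at 57.1, 59.5, 98.5 and 87.0 CPM in Nampt-cKO libraries 1 to 4, against 30.1, 27.0, 28.4 and 28.5 CPM in control libraries 1 to 4. The groups were separate, and its log2 fold change was 1.41 (SE 0.17, edgeR adjusted p = 0.000232). Colec11, a soluble collectin, was lower at 0.253 CPM on average in Nampt-cKO libraries, against 1.34 CPM in control libraries (-2.42, adjusted p = 0.0115). Mbl1 and Mbl2 had 0 reads in all 8 libraries. Of the alternative pathway, Cfp, encoding properdin, which stabilises its convertase, averaged 18.0 CPM in Nampt-cKO libraries and 9.72 CPM in control libraries, without overlap (log2 fold change 0.89, edgeR adjusted p = 0.00261). Cfd, the protease that cuts factor B and a product of adipocytes, was at 22.6, 58.4, 160 and 92.3 CPM in Nampt-cKO libraries, against 62.6, 75.3, 88.4 and 20.6 CPM in control libraries, a spread in both groups far wider than their difference (0.43, 0.566). Of the 7 terminal components, which form the membrane attack complex, 4 were tested and 0 passed in either direction in edgeR or in DESeq2. At an unadjusted edgeR p under 0.05, 0 were higher and 1 lower, a share that was not counted over all genes.

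Among receptors, Itgam, the alpha chain of complement receptor CR3 on neutrophils and macrophages, was higher at 12.5, 19.2, 40.9 and 24.1 CPM in Nampt-cKO libraries, against 9.98, 9.49, 13.3 and 10.5 CPM in control libraries (log2 fold change 1.16, edgeR adjusted p = 0.0143). Itgax, the alpha chain of CR4 and a dendritic cell marker, was lower at 3.78, 1.36, 0.763 and 0.782 CPM, against 9.16, 7.35, 12.1 and 8.82 CPM (-2.47, adjusted p = 0.00328). Vsig4, a macrophage receptor of C3 fragments, was named after its values were seen. It had 0, 24, 76 and 20 exon reads in Nampt-cKO libraries 1 to 4, against 0, 0, 0 and 2 in control libraries 1 to 4, too few to be tested. Counting mates of a pair once, the depth-scaled ratio was 60.0 with an exact 95% interval of 10.4 to 2410 that covers counting error only, and Nampt-cKO replicate 1 had no read.

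Of the 16 listed regulators, which protect host cells, 11 were tested, Serping1 included, and 3 were lower and 2 higher, shares near the background of 22.0% and 23.8%. Cd55, which dissociates C3 convertases on the cell surface, was at 29.3, 21.2, 28.5 and 27.4 CPM in Nampt-cKO libraries 1 to 4, against 96.4, 100.5, 91.6 and 103 CPM in control libraries 1 to 4. The highest Nampt-cKO library was far below the lowest control, and the log2 fold change was -1.88 (SE 0.11, edgeR adjusted p = 6.23e-06). Clu, encoding clusterin, an inhibitor of the terminal complex, averaged 52.3 CPM in Nampt-cKO libraries and 88.8 CPM in control libraries (-0.76, adjusted p = 0.000231). Susd4, an inhibitor of convertase formation, averaged 1.09 and 2.80 CPM (-1.36, adjusted p = 0.0107). Cr1l, encoding the rodent regulator Crry, was higher by 0.29 (adjusted p = 0.0269), and Csmd1, a large membrane inhibitor, by 0.67 (adjusted p = 0.0454). Cd55, Clu, Susd4, Masp1, Cfp, Itgam, Itgax and Colec11 passed under all 20 alternatives, whereas Cr1l passed under 12 and Csmd1 under 7, and both were lost without Nampt-cKO replicate 3 (adjusted p = 0.0704 and 0.0833).

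**Figure D5:**
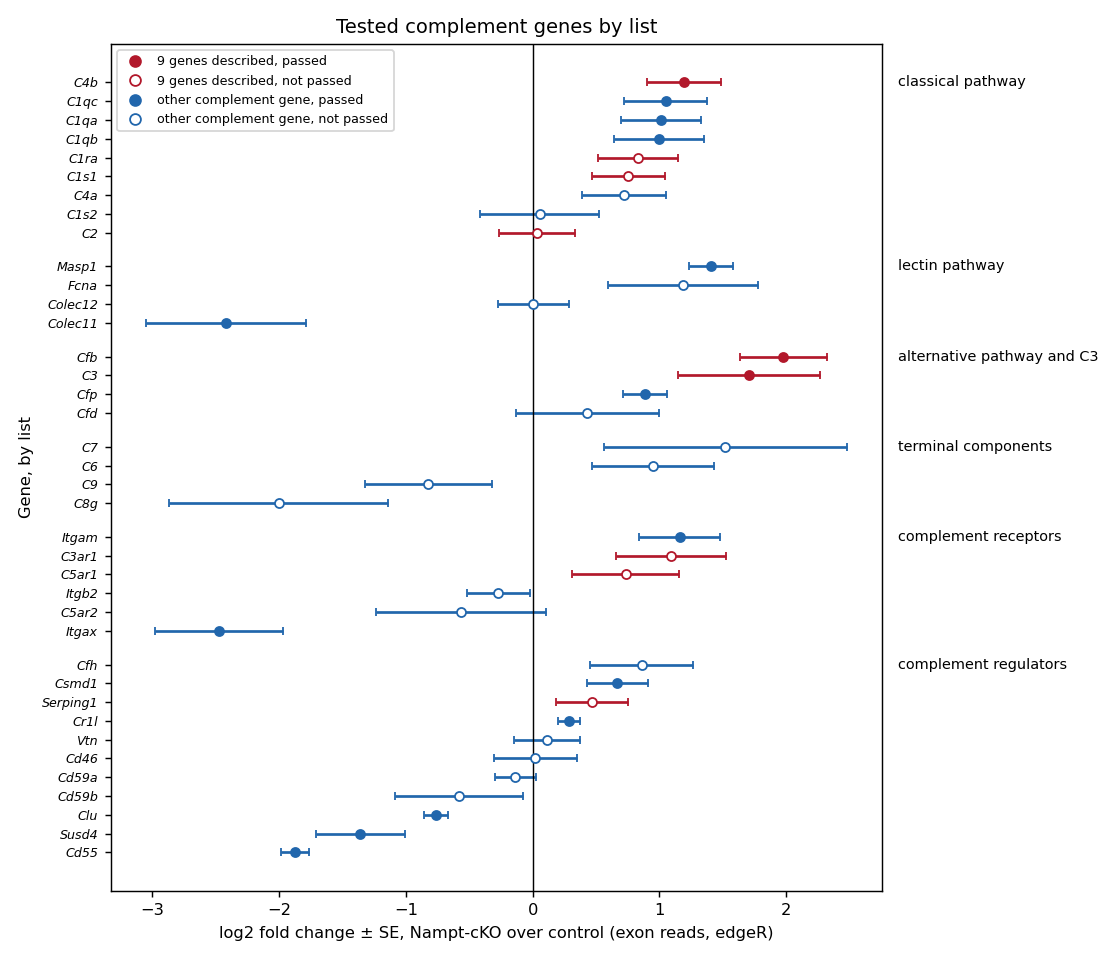
Log2 fold change with SE, Nampt-cKO over control, of the tested complement genes by pathway, red for the 9 genes described and blue for the others, filled where the edgeR adjusted p was under 0.05. Cfb, C3 and Masp1 lie furthest right among filled points at 1.98, 1.71 and 1.41, and Itgax, Colec11 and Cd55 furthest left at -2.47, -2.42 and -1.88.

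Cytokines known to induce complement genes were read from the same table. Il6 was at 3.30, 5.52, 19.8 and 7.24 CPM in Nampt-cKO libraries 1 to 4, against 0.288, 0.183, 0.0386 and 0.0815 CPM in control libraries 1 to 4, with a log2 fold change of 5.93 (SE 0.75, edgeR adjusted p = 0.000255). The groups did not overlap. Il6 was highest in Nampt-cKO replicate 3 and lowest in Nampt-cKO replicate 1. Its control levels rested on 12, 10, 2 and 4 exon reads in control libraries 1 to 4, too few to rank these libraries. Osm, encoding oncostatin M of the same family, was lowest of the Nampt-cKO libraries in replicate 2 (0.907 CPM). It was higher by 4.93 (edgeR adjusted p = 0.000656). Its control levels rested on only 4, 2, 6 and 0 exon reads in control libraries 1 to 4. It passed in 19 of 20 alternatives, with log2 fold changes from 0.81 to 5.44 over the 20. Lif, encoding leukemia inhibitory factor, was higher by 1.90 (0.00127). Il1b was higher by 1.61 (0.0293), and passed in 14 of 20 alternatives. The call was lost without Nampt-cKO replicate 3 (0.89, 0.0836), without control replicate 1, 2 or 3, with total gene reads and with limma on RPKM at a pseudocount of 1. Tnf had a log2 fold change of -0.71 (0.210) and Il1a of -0.66 (0.121), and neither passed. Ifng and Il17a were too low to test, with 0 reads of either in all 4 Nampt-cKO libraries. Whether any of these cytokines acted on the complement genes was not tested.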

How the data were processed

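RNA-seq of whole skin from 4 Nampt-cKO and 4 control libraries was analysed from a single deposited table. The libraries were selected for polyadenylated RNA. The authors aligned reads to mm10 (GRCm38) and deposited, for each gene and library, counts of exon, unique exon, intron and gene reads and RPKM values. Which aligner and counter were used, in which versions and with which strand setting, is not given in the sources used here. Between 61.7% and 64.2% of counts above 0 were even, so mates of many pairs appear to have been counted apart; counting intervals cover counting error only. Start positions were 1 below RefSeq for 17987 of 23233 genes with the same end (145 had the same start), and coordinates are printed 1-based. Columns of the authors' own comparison, fold changes and p-values, were not used.

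Exon counts were tested for all genes with edgeR 4.0.16 (R 4.3.3; TMM factors, filterByExpr, quasi-likelihood F test, Benjamini-Hochberg, threshold 0.05), with the condition as the only term. Intron reads were the deposited intron counts and were tested in the same way. Ratios of RPKM were tested by exact permutation with SciPy 1.17.1. Scripts were tested on simulated data. Alternatives were RLE, upper-quartile or no composition factors, limma 3.58.1 on log2(RPKM + 0.1 or 1), voom with quality weights per library, DESeq2 1.42.0, no filter or at least 1 CPM in 4 libraries, unique exon reads, gene reads, a replicate block and leaving out each library. The 9 genes and all lists were chosen with earlier results of these data known. Named were the 9 genes, the other complement genes and inducing cytokines past the test, the paralogs C1rb, C1s2 and C4a, and the 5 genes with a mean of at least 1 CPM, predicted genes left out, most correlated with C3 or C5ar1; Cfd, Tnf, Il1a, Ifng, Il17a, Mbl1, Mbl2 and Vsig4 were added after their values were seen.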

Additional observations from a re-analysis of the deposited data

Results flagged for a closer look

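Cfb in control replicate 3 stood apart from the other controls, at 16.5 CPM against 11.7 to 12.2 CPM in the other 3, a gap of 0.887 of the range of the control group. It remained below the lowest Nampt-cKO library, at 27.6 CPM. In 18 groups looked at in this way (9 genes in 2 groups), chance flags about 1 in 20.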

How the results depend on the processing

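The number of the 9 genes higher in Nampt-cKO skin was 3 with edgeR, 6 with DESeq2 and 6 with limma-voom and sample quality weights (method and weighting changed together). It was 2 with limma at either pseudocount added to RPKM and 2 to 7 when 1 library was left out. No alternative called any of the 9 genes lower in Nampt-cKO skin. Of all genes, 4109 were higher with edgeR, 4403 with DESeq2 and 4462 with limma-voom and sample quality weights. That number was 3749 with the replicate block and 3431 to 4534 when 1 library was left out. Of the other complement genes, 8 were higher, 5 with limma at either pseudocount added to RPKM and 3 to 10 when 1 library was left out; 5 to 6 were lower throughout. Replicate numbers were not shown to pair the libraries: same-numbered libraries deviated from their group means with correlations of -0.05 to 0.18, others with -0.23 to 0.14, and 3 of 4 Nampt-cKO and 2 of 4 control libraries correlated best with their own number. With the replicate number as a block, 6 of the 9 were higher, C1ra (adjusted p = 0.00486), C1s1 (0.0120) and C3ar1 (0.0266) being added to the 3, and C2 had a log2 fold change of -0.0435. C2, at 0.03 with edgeR, was also below 0 with limma (-0.125 with 0.1 added to RPKM, -0.0909 with 1 added), with total gene reads (-0.0297) and with upper-quartile factors (-0.0206), and ran from -0.29 to 0.19 when 1 library was left out, with -0.0015 without Nampt-cKO replicate 3, -0.29 without Nampt-cKO replicate 4 and -0.09 without control replicate 2. The other 8 genes kept a fold change above 0 under all 20 alternatives. The causes were not tested. With 3 libraries against 4, a ratio cannot go below an exact p of 0.0571. The receptors had the fewest reads, down to 50 in a library.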
